A study of Homo sapiens with 2 samples.

Results

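The genes described here are 2 FET genes and 7 ETS transcription factor genes, in slow-cycling and non-slow-cycling cells of SK-ES-1. They were chosen by name: *EWSR1* and *TAF15* of the FET family, and *FLI1*, *ETS1*, *ETS2*, *ETV4*, *ETV5*, *ETV6* and *ELK4* of the ETS family. All 9 have an entry in both tables, among 53737 genes in all. SK-ES-1 is an established line of Ewing sarcoma, a tumour of bone and soft tissue, and the labels give its tissue as bone and its genotype as WT. The design has 2 libraries, 1 of slow-cycling cells and 1 of non-slow-cycling cells. Every difference below is therefore a difference between 2 libraries of 1 cell line, with no replicate check and no p-value. How the slow-cycling cells were separated is not given in the sources used here.

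FET proteins are nuclear RNA-binding proteins that work in transcription and splicing, and their low-complexity amino-terminal region activates transcription when it is joined to a DNA-binding domain. ETS proteins share a DNA-binding domain that reads a GGAA core. In Ewing sarcoma a translocation joins the amino-terminal region of EWSR1 to the DNA-binding region of an ETS protein, most often FLI1, and the fusion protein EWSR1-FLI1 drives the tumour. Other ETS proteins are end points of signalling: ELK4 sits with serum response factor on early genes, ETV4 and ETV5 are induced by FGF and ERK signalling, ETS1 and ETS2 are activated by ERK phosphorylation, and ETV6 is a repressor.

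Levels are in per-million units (units below), obtained by undoing the log2 scale of the deposited values. A log2 ratio is log2(level + 1) in slow-cycling minus that in non-slow-cycling cells, a scale that understates differences of low genes. Whether a level is also scaled by transcript length is not stated, so the level of 1 gene is not compared with that of another. The filter, the ranges of level and the summed levels below do use these units across genes and share this uncertainty. A gene counted as tested at 1 per-million unit or more in at least 1 library, which 13444 genes reached, and a gene was called higher or lower at a difference of at least 1.5-fold on this scale. The sequencing depth is unknown. The levels summed to 983638 units in slow-cycling against 984120 in non-slow-cycling cells. Of 19363 protein-coding genes, 34.6% were listed at 0 in both libraries. The 13 coding genes of the mitochondrial genome, needed by every cell, are all among them, so an entry of 0 can be a failed estimate. Whether this extends to nuclear genes listed at 0 was not tested.

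The upstream windows of *ELK4*, *ETS2*, *ETV6* and *EWSR1* are shown with their ETS motifs marked. The first 3 genes had higher levels in the slow-cycling library and the last a lower level. They were not chosen by direction: these are the 4 members with an entry in the RefSeq table of the GRCh38.p14 build. *ETS2* has 2 annotated starts in it, and the window of the first is shown. Each is the 250 bases before the annotated start, 5′ to 3′ on the gene's own strand, with the ETS core GGAA or its other strand TTCC in capitals and, in *ELK4*, all of the high-affinity ETS motif CCGGAAGT. The *ELK4* window is chr1:205632012-205632261 on the minus strand. On the plus strand are the *ETS2* window at chr21:38804933-38805182, the *ETV6* window at chr12:11649424-11649673 and the *EWSR1* window at chr22:29268018-29268267.
ELK4: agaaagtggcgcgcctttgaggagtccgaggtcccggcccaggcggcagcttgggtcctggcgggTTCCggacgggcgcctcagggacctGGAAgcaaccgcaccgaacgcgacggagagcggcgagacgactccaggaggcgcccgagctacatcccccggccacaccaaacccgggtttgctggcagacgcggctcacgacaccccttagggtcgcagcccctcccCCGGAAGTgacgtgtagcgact
ETS2: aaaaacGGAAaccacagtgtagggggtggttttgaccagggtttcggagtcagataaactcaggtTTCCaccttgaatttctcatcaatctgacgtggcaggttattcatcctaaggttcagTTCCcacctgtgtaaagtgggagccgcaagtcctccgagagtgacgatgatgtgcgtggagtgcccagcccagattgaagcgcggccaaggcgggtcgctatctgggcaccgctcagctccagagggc
ETV6: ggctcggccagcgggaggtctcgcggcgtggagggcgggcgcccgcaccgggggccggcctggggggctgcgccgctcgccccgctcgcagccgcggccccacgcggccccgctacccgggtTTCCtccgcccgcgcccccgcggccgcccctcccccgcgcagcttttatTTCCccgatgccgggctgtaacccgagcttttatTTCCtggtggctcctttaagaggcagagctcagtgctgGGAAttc
EWSR1: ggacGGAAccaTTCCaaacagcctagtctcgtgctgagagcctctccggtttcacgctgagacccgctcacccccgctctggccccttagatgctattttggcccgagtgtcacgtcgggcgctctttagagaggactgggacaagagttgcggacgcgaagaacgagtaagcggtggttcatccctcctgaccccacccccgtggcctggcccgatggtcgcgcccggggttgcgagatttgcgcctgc

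GGAA was found on either strand 3 times in the *ELK4* window, 3 times in the *ETS2* window shown, 4 times in the *ETV6* window and 2 times in the *EWSR1* window. The window of the other *ETS2* start, at chr21:38805679-38805928, holds it 6 times. It is common: 92.7% of 35116 windows of this length hold at least 1, with a median of 3. CCGGAAGT, searched on both strands, was in the *ELK4* window alone of these 4 and not in the second *ETS2* window, at positions -22 to -15, where -1 is the base before the start. Of all windows, 3.42% hold it. In *ELK4* it runs into TGACG, part of a cyclic AMP response element, with 1 base in common. The joined run CCGGAAGTGACG was searched for after the *ELK4* window had been read, and 0.234% of windows hold it. Among 23 FET and ETS genes with a window, *GABPA* was the other gene with CCGGAAGT, on the opposite strand at -67 to -60. A match is a description of these letters and does not show binding.

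Of the 9 members, 7 were tested and *ETS1* and *ETV4* were listed at 0 in both libraries. None of the 9 differed by 1.5-fold, where 6.78% of the 13444 tested genes did, 5.38% higher and 1.41% lower. The 4 ETS genes *ETS2*, *ETV5*, *ELK4* and *ETV6* had ratios above 0, and *EWSR1*, *TAF15* and *FLI1* had ratios below 0. The ratios of the 7 ran from -0.16 to 0.52 on the log2 scale. Their median was 0.27, and it was 0.00 when the 2 members at 0 were counted as no difference, beside 0.03 over all tested genes. At a lower mark, a log2 ratio of 0.32 in size, *ETS2*, *ETV5* and *ELK4* were higher and no member was lower, where 18.5% of all tested genes were past it, 13.5% higher and 4.99% lower. *ELK4*, at 0.33, was past this mark by little: its ratio was 0.30 with the median of all tested genes set to 0 and 0.25 with the median of genes of like level subtracted, which left *ETS2* and *ETV5* past it. At 2-fold 1.9% of genes were higher and 0.431% lower, and no member was past it.

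**Figure D1:**
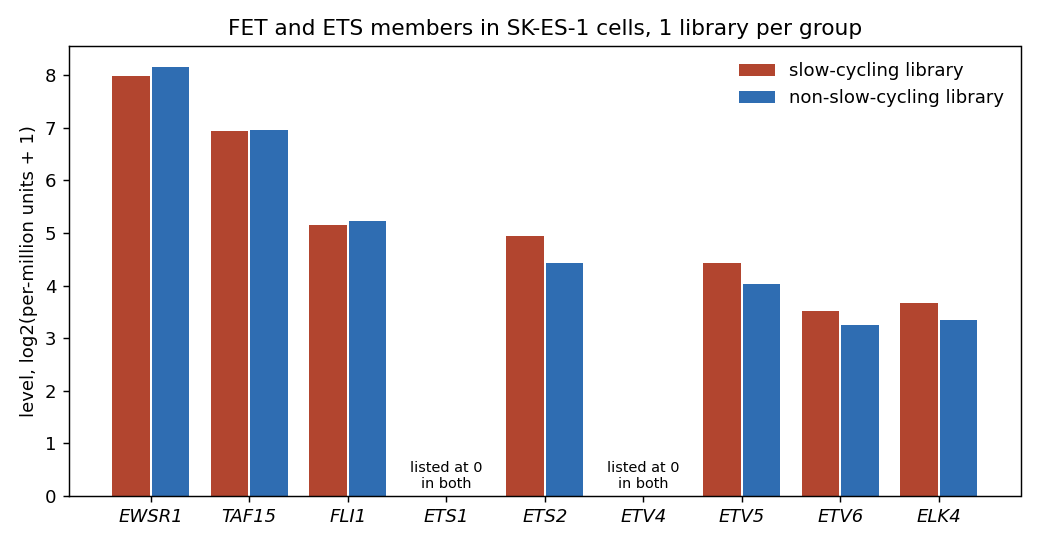
Levels of the 9 members as log2(per-million units + 1) in the slow-cycling library (red, left bar) and the non-slow-cycling library (blue, right bar), 1 library each and so without error bars. The red bar is the taller for ETS2, ETV5, ETV6 and ELK4 and the shorter for EWSR1, TAF15 and FLI1, while ETS1 and ETV4 are listed at 0 in both.

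Ratios moved with level across all genes. Over tested genes the log2 ratio had a median of 0.18 at a mean level under 8 per-million units, 0.04 at 8 to 64 and -0.06 at 64 or more. *FLI1*, with a ratio below 0, lies in the middle range together with *ETS2*, *ETV5*, *ETV6* and *ELK4*. *EWSR1* and *TAF15* lie in the top range. In the middle range 7.59% of 7182 genes were higher and 3.24% lower by the 0.32 mark, and 1.41% were higher and 0.376% lower by 1.5-fold. When the median ratio of genes of like level was subtracted, 436 genes were at least 1.5-fold higher and 356 lower, against 723 and 189 without it. The part of level in the members' ratios was not tested further, beyond the subtracted values given with the processing alternatives.

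**Figure D2:**
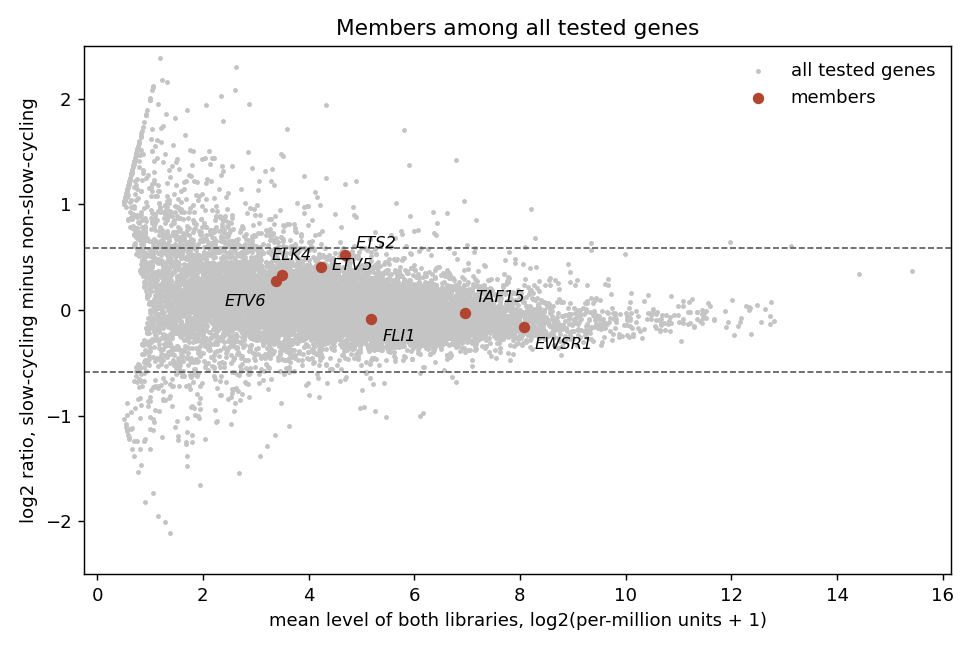
Log2 ratio, slow-cycling minus non-slow-cycling, against the mean level of both libraries for 13444 tested genes (grey) and the 7 tested members (red), with dashed lines at 1.5-fold and 10 genes beyond the vertical axis limit of 2.5. All 7 lie between the dashed lines, and the spread of grey points is widest at low levels.

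*EWSR1* and *TAF15* had ratios slightly below 0, and that of *TAF15* turned to 0.05 when the median ratio of genes of like level was subtracted. *EWSR1*, the 5′ partner of the fusion, lies on chromosome 22 (29268268 to 29300521, GRCh38.p14) and was at 254 units in slow-cycling against 284 in non-slow-cycling cells. Its log2 ratio was -0.16. Of 2705 tested genes at a mean level of 64 or more, 22.5% had a ratio as low or lower, so a difference of this size is common at its level. *TAF15*, whose product associates with the general transcription factor TFIID, lies on chromosome 17 (35809484 to 35847242). It was at 122 units in slow-cycling against 124 in non-slow-cycling cells, a log2 ratio of -0.02, and 59.6% of genes in that range were as low or lower. *EWSR1* and *TAF15* thus had ratios below 0 and short of the 0.32 mark, in a range of levels where 66% of genes were below 0.

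The 10 partners of FET proteins on the list, all at a mean level of 64 or more, had log2 ratios from -0.22 to 0.22 with a median of -0.07. Of them 3 had a ratio above 0 and 7 below, where 66% of genes in that range were below 0. None was at 1.5-fold, a mark that 0.85% of the 2705 genes in that range passed in either direction. The 2 with the largest differences were *PRMT1*, the main arginine methyltransferase of FET proteins, and *SMARCC1*, a core subunit of the BAF chromatin remodelling complex that EWSR1-FLI1 recruits. *PRMT1* was at 354 units in slow-cycling against 412 in non-slow-cycling cells, a log2 ratio of -0.22. *SMARCC1* was at 166 units in slow-cycling against 143 in non-slow-cycling cells, a log2 ratio of 0.22. The import receptor *TNPO1*, which carries FET proteins into the nucleus, was at 85.7 units in slow-cycling against 84.3 in non-slow-cycling cells. The gene annotated nearest to the *EWSR1* start is *RHBDD3*, with 104 bases between them. *RHBDD3*, named after its values were seen, was at 30.8 units in slow-cycling against 36.2 in non-slow-cycling cells, a log2 ratio of -0.23.

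*FLI1*, the 3′ partner of the fusion, lies on chromosome 11 (128685132 to 128813267) and was at 34.5 units in slow-cycling against 36.6 in non-slow-cycling cells. Its log2 ratio was -0.08, and 25.5% of 7182 tested genes at 8 to 64 per-million units had a ratio as low or lower. A level per gene can sum reads of the fusion transcript and of the unfused gene, so the *EWSR1* and *FLI1* values do not measure the fusion by itself. Levels from bulk RNA also do not tell fewer cells with a transcript from less of it per cell. The antisense gene *SENCR* and the non-coding gene *LOC101929538*, which overlap *FLI1*, were listed at 0 in both libraries.

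*ETS1*, beside *FLI1* on chromosome 11 (128458765 to 128587558), was listed at 0 in both libraries, and so was its antisense gene *ETS1-AS1*. *ETS1* and *FLI1* are 97.6 kb apart with no other protein-coding gene between them. The same arrangement recurs on chromosome 21, where *ERG*, listed at 0 in both libraries, lies 143 kb from *ETS2*. On chromosome 1 *ETV3L*, listed at 0 in both, lies 21.4 kb from *ETV3*, which was at 8.74 units in slow-cycling against 6.94 in non-slow-cycling cells. Of 4 such neighbouring pairs of ETS genes, 3 had 1 gene listed at 0 in both libraries and the other above 0. Mixed pairs are common where, as here, 13 of the 28 ETS genes were listed at 0 in both. In the remaining pair, *ELF5* and *EHF* on chromosome 11, both genes were listed at 0. These pairs were looked up after the values were seen.

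*ETS2*, an ETS protein activated by ERK phosphorylation, had the highest ratio of the 9 members. It lies on chromosome 21 (38805183 to 38824955) and was at 29.9 units in slow-cycling against 20.6 in non-slow-cycling cells. Its log2 ratio of 0.52 is 1.43-fold on the log2(level + 1) scale, short of the 1.5-fold mark. In the range of 8 to 64 per-million units, 2.01% of genes had a ratio as high or higher. Genes with ETS and AP-1 elements that ETS1 and ETS2 are known to act on, proteases and matrix genes for the most part, showed no common direction. Of 11 on that list, 3 were listed at 0 in both libraries, 1 was below the filter and 7 were tested, 4 of them above 0 and 3 below, and their median log2 ratio was 0.28. *CDKN1A*, a CDK inhibitor, was the gene of that list at 1.5-fold or more, at 1.67 units in slow-cycling cells and listed at 0 in non-slow-cycling cells. It passed the filter only through the slow-cycling library.

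*ETV5*, a factor of the PEA3 group that FGF and ERK signalling induces, lies on chromosome 3 (186046314 to 186109089). It was at 20.7 units in slow-cycling against 15.3 in non-slow-cycling cells, a log2 ratio of 0.41, and 3.86% of genes in its range were as high or higher. The other PEA3 genes are *ETV4* and *ETV1*. *ETV4*, on chromosome 17 (43527846 to 43546340), was listed at 0 in both libraries. *DHX8*, a helicase gene that overlaps *ETV4* on the chromosome, was at 10.9 units in slow-cycling against 10.8 in non-slow-cycling cells. *ETV1* was at 6.44 units in slow-cycling against 7.26 in non-slow-cycling cells, a log2 ratio of -0.15.

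Of the genes that ERK signalling induces together with *ETV4* and *ETV5*, 3 passed 1.5-fold upward in slow-cycling cells and the other 6 of 9 tested were within 1.5-fold. Of 12 on this list, 1 was listed at 0 in both libraries, 2 were below the filter and 9 were tested. All 9 had a ratio above 0, where 56.2% of tested genes of all levels did. The median log2 ratio was 0.44. The 3 past 1.5-fold were among the 5 genes of the list at a mean level under 8, where 17% of 3557 genes were 1.5-fold higher and the median ratio was 0.18. None of the other 4 was past it. *PHLDA1* was at 1.58 units in slow-cycling against 0.0941 in non-slow-cycling cells, and so passed the filter only through the slow-cycling library. Its ratio thus had to be above 0. Among the 8 genes of the list at 1 unit or more in both libraries, 2 were 1.5-fold higher, against 3.09% of 12821 such genes. As earlier results of these data were known when the list was chosen, its counts are a description and not a test. *SPRY4*, an inhibitor of receptor tyrosine kinase signalling, was at 3.87 units in slow-cycling against 1.77 in non-slow-cycling cells, and *DUSP5*, a phosphatase of ERK, at 5.35 in slow-cycling against 3.05 in non-slow-cycling cells.

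The genes upstream of *ETV4* and *ETV5* were spread around 0. Their list holds 10 genes: FGF receptors and ligands, members of the CIC repressor complex and *KSR1*, a scaffold of the ERK pathway. Of these 7 were tested, 3 with a ratio above 0 and 4 below, and none was at 1.5-fold. The median log2 ratio was -0.07. The largest ratios were those of *ATXN1L*, a partner of CIC, at 12.7 units in slow-cycling against 10.2 in non-slow-cycling cells, and of the receptor *FGFR4*, at 12.0 in slow-cycling against 13.5 in non-slow-cycling cells. *CIC*, the repressor of *ETV4* and *ETV5*, was at 62.1 units in slow-cycling against 58.4 in non-slow-cycling cells, a log2 ratio of 0.09. *COP1* (listed as *RFWD2*) and *DET1*, parts of a ubiquitin ligase that degrades ETV4 and ETV5, had log2 ratios of 0.07 and 0.44. *DET1* was at 5.47 units in slow-cycling against 3.76 in non-slow-cycling cells. *TRIB1*, a pseudokinase that binds COP1, was at 46.5 units in slow-cycling against 38.6 in non-slow-cycling cells. No gene of the 9 on the degradation list was at 1.5-fold, with a median of 0.16.

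*ELK4*, a ternary complex factor that binds DNA with serum response factor, lies on chromosome 1 (205607943 to 205632011). It was at 11.7 units in slow-cycling against 9.10 in non-slow-cycling cells, a log2 ratio of 0.33, and 6.91% of genes in its range were as high or higher. The other ternary complex factors were *ELK3* and *ELK1*. *ELK3* was at 20.5 units in slow-cycling against 17.1 in non-slow-cycling cells (log2 ratio 0.25), and *ELK1* at 32.4 in slow-cycling against 31.5 in non-slow-cycling cells (log2 ratio 0.04). Their partner *SRF*, serum response factor, was at 55.4 units in slow-cycling against 42.8 in non-slow-cycling cells, a log2 ratio of 0.36. The competing cofactors *MRTFA* and *MRTFB*, listed as *MKL1* and *MKL2*, had log2 ratios of 0.05 and 0.13. No gene of this group reached 1.5-fold.

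Listed targets of SRF or of ternary complex factors, early genes for the most part, differed by more. Which of them ELK proteins bind was not tested. Of 15 tested, 9 passed 1.5-fold upward in slow-cycling cells and none downward, against 5.38% and 1.41% of all tested genes. The list was chosen with earlier results of these data known, so these counts are a description and not a test. Among the 14 at 1 unit or more in both libraries, 8 were 1.5-fold higher, against 3.09% of 12821 such genes. The 9 lie across levels, 2 under 8 units, 4 at 8 to 64 and 3 at 64 or more. The median log2 ratio of the list was 0.69. The largest were the zinc finger genes *EGR3*, *EGR4* and *EGR2*, and *FOSB*, a subunit of AP-1. *EGR3* was at 12.8 units in slow-cycling against 1.80 in non-slow-cycling cells, *EGR2* at 95.4 in slow-cycling against 36.1 in non-slow-cycling cells and *FOSB* at 99.8 in slow-cycling against 29.9 in non-slow-cycling cells. *EGR4* was at 2.97 units in slow-cycling cells and listed at 0 in non-slow-cycling cells. It passed the filter only through the slow-cycling library, so its ratio had to be above 0. The structural genes on the list stayed closer to 0, with log2 ratios of 0.07 for *VCL* and -0.07 for *ACTB*.

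*ETV6*, a repressor that forms polymers through its pointed domain, lies on chromosome 12 (11649674 to 11895377). It was at 10.4 units in slow-cycling against 8.45 in non-slow-cycling cells, a log2 ratio of 0.27, and 10.5% of genes in its range were as high or higher. Other ETS repressors include *ETV3*, with a log2 ratio of 0.30, and *ERF*, at 123 units in slow-cycling against 131 in non-slow-cycling cells (log2 ratio -0.09). Of 14 co-factors that bind ETS proteins, 12 were tested and none was at 1.5-fold, with a median of 0.07. The 2 with the largest ratios were *GABPB2*, a subunit that pairs with GABPA, at 17.1 units in slow-cycling against 12.6 in non-slow-cycling cells, and *CBFB*, the partner of RUNX proteins, at 97.2 in slow-cycling against 73.5 in non-slow-cycling cells. *RUNX1* itself was listed at 0 in both libraries, while *GABPA* was at 35.1 units in slow-cycling against 34.6 in non-slow-cycling cells.

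Across the ETS family of 28 genes, 14 were tested, 13 were listed at 0 in both libraries and *FEV*, at 0.919 units in slow-cycling against 0.0992 in non-slow-cycling cells, was below the filter. Those at 0, besides *ETS1*, *ETV4*, *ERG*, *ETV3L*, *ELF5* and *EHF*, were *ETV2*, *ETV7*, *ELF3*, *SPDEF*, *SPI1*, *SPIB* and *SPIC*. Several of these are factors of epithelial or blood cells. Of the 14 tested, 10 had a ratio above 0 and 4 below, where 56.2% of all tested genes were above 0. Their median was 0.19 and none was at 1.5-fold. The ELF group went both ways: *ELF4* had the lowest log2 ratio of the family, -0.28. *ELF1* and *ELF2* had log2 ratios of 0.17 and 0.21. Of the 11 ETS genes at 8 to 64 per-million units, 9 had a ratio above 0, where 58% of genes in that range did. The 3 past the 0.32 mark were the members *ETS2*, *ETV5* and *ELK4* again, where 7.59% of genes in that range were higher and 3.24% lower.

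**Figure D3:**
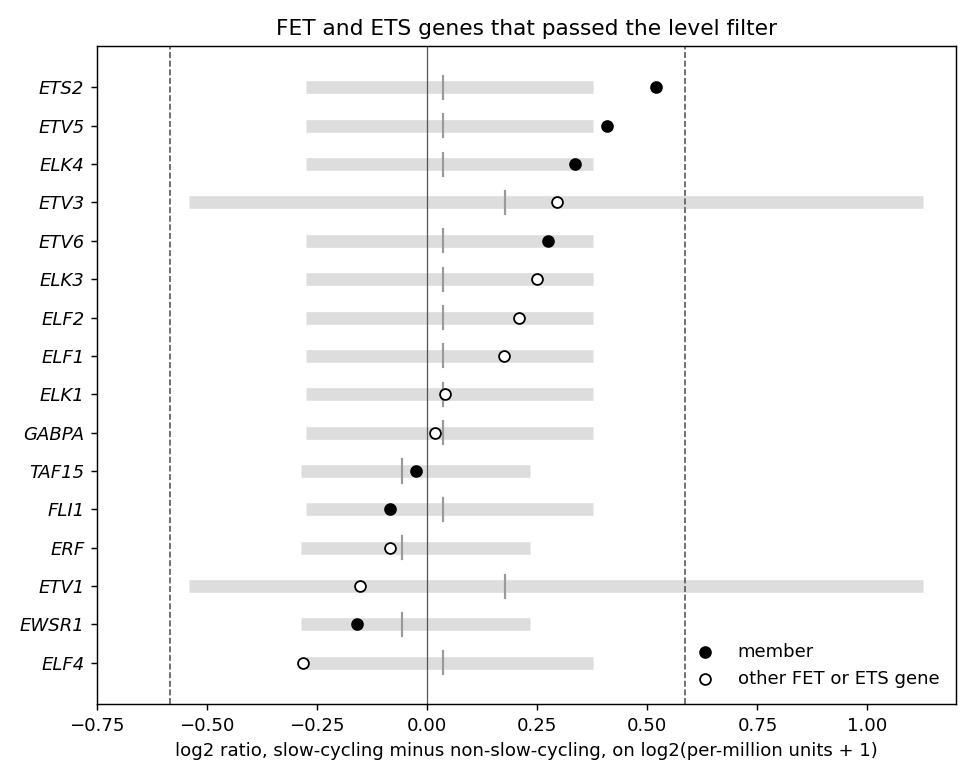
Log2 ratios, slow-cycling minus non-slow-cycling, of 16 FET and ETS genes that passed the filter (filled, members; open, other genes of the families). Grey bars span the 5th to the 95th percentile, and ticks mark the median, of all tested genes in the same range of levels, and dashed lines mark 1.5-fold. ETS2 and ETV5 lie above their grey bar and ELF4 below it.

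Targets of the EWSR1-FLI1 fusion are the other readout tied to these genes. Of 20 genes the fusion activates, 10 had a ratio above 0 and 10 below, with none at 1.5-fold and a median of -0.00069. At a mean level of 64 or more, where 15 of the 20 lie, 0.85% of genes were past 1.5-fold in either direction. The extremes were *LOXHD1*, at 20.8 units in slow-cycling against 16.2 in non-slow-cycling cells, and the nuclear receptor *NR0B1*, at 95.3 in slow-cycling against 118 in non-slow-cycling cells. Of 14 genes the fusion represses, 11 were tested, 9 with a ratio above 0 and 2 below. Over all tested genes 56.2% had a ratio above 0. At a mean level under 8 units, where the median log2 ratio of all tested genes was 0.18, lie 9 of the 11. The 2 below were *FOXO1*, with a log2 ratio of -0.09, and *TGFBR2*, with -0.13. *TGFBR2* passed the filter only through the non-slow-cycling library. *COL6A1*, *CDKN1A*, *FBN1* and *SNAI2* passed the filter only through the slow-cycling library, so that they had to differ. Of the 6 tested genes at 1 unit or more in both libraries 5 were 1.5-fold higher in slow-cycling cells, against 3.09% of all such genes. Of these 5, *LOX*, *CTGF* and *COL1A1* lie under 8 units, where 17% of genes were that much higher, and *IGFBP3* and *CYR61* above. *CYR61* is also counted in the list of SRF targets. The fusion lists too were chosen with earlier results of these data known, so their counts are a description and not a test. *ETS1*, which is also on that list, was listed at 0. The repressed genes with the largest ratios were *COL6A1*, *CDKN1A*, *FBN1* and *SNAI2*, of which *COL6A1* was at 2.33 units in slow-cycling cells and listed at 0 in non-slow-cycling cells. *FBN1*, a matrix fibrillin, was at 1.77 units in slow-cycling against 0.180 in non-slow-cycling cells, and *SNAI2*, a repressor of epithelial genes, at 2.10 in slow-cycling against 0.350 in non-slow-cycling cells.

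**Figure D4:**
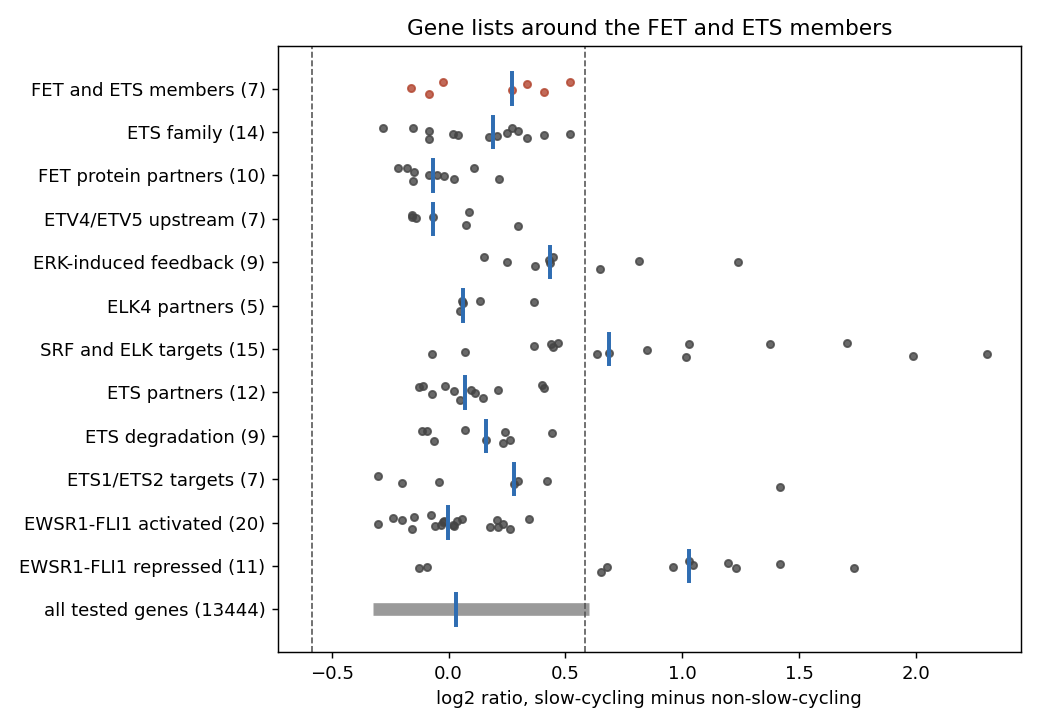
Log2 ratios, slow-cycling minus non-slow-cycling, of the tested genes of each list, with the number tested in brackets, blue ticks at the median and vertical scatter within a row added for visibility. The grey bar spans the 5th to the 95th percentile of all 13444 tested genes (-0.32 to 0.60), and dashed lines mark 1.5-fold. Of the 12 lists drawn, those of SRF and ELK targets, ERK-induced genes, ETS1 and ETS2 targets and fusion-repressed genes hold genes beyond 1.5-fold.

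Markers were read to check the labelled cell type. All 7 Ewing sarcoma markers were tested, with summed levels of 1074 units in slow-cycling against 1094 in non-slow-cycling cells. Endothelial and blood cells, in which FLI1, ETS1, ERG or SPI1 are common, were read from their own markers. Of 7 endothelial markers 6 were listed at 0 in both libraries, *PECAM1*, *CDH5* and *ERG* among them, and *EMCN* was at 11.2 units in slow-cycling against 8.62 in non-slow-cycling cells. Of 5 blood cell markers 4 were listed at 0 in both, *PTPRC* and *SPI1* among them, and *LYZ* was at 8.45 units in slow-cycling against 6.66 in non-slow-cycling cells. Of 6 epithelial markers *KRT19* and *CDH1* were listed at 0 in both, *ESRP1* was below the filter and 3 were tested. *KRT18* was at 15.3 units in slow-cycling against 17.1 in non-slow-cycling cells. *KRT8* was at 3.51 in slow-cycling against 2.89 in non-slow-cycling cells, and *EPCAM* at 1.37 in slow-cycling against 1.21 in non-slow-cycling cells. Levels of all 6 summed to 20.3 units in slow-cycling against 21.2 in non-slow-cycling cells, with *KRT18* the largest part.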

How the data were processed

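RNA of SK-ES-1 cells was profiled in 2 libraries. Trizol was used to isolate total RNA and a stranded mRNA kit to make the libraries, per the labels' protocols, and the submitters' processing notes name hg38. For aligner, counting tool, strand use and annotation, nothing is given in the sources used here. Per the file headers, the authors deposited 1 column of normalized values per table, headed LRC or non-LRC, abbreviations that no label explains. Groups follow the sample each table was deposited for. The scale of the deposited column is not stated. The authors' values were read as log2 with 1 added before the logarithm, since values reached 15.6 in slow-cycling against 15.2 in non-slow-cycling cells with none below 0. They keep no counts, so depth is unknown and no interval was computed.

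Lines of 1 gene ID with a locus suffix (174 of 53826) were summed in per-million units. Names and coordinates came from RefSeq's GRCh38.p14 table, which matched 51252 gene IDs and not 2485. No further scaling was applied. With 1 library per group, differences are described and not tested. Scripts (Python 3.11.15, pandas 2.3.3, numpy 2.4.6) were tested on simulated data. The members and lists were chosen with earlier results of these data known, from general knowledge of the pathways. Named are the members, other FET and ETS genes, and from each other list up to 4 genes past 1.5-fold, or the 2 with the largest ratio, and partners of a member. *VCL*, *ACTB*, *TNPO1*, *RUNX1*, *KSR1*, *LOX*, *CTGF*, *COL1A1*, *IGFBP3*, *CYR61*, *FOXO1* and *TGFBR2*, and genes overlapping or beside a member, were named after their values were seen. Counts over genes at 1 unit or more in both libraries, and list counts by range of level, were added after seeing the data. Some items that these rules name are left out of this account.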

Additional observations from a re-analysis of the deposited data

How the results depend on the processing

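The members' ratios were recomputed with the median of all tested genes set to 0, with upper quartile scaling, with the median of genes of like level subtracted and with a pseudocount of 0.1. No member reached 1.5-fold under any of these 4, and *ETS2*, the closest, ranged from 0.47 to 0.54. *ELK4* was under the mark of 0.32 with the median set to 0 (0.30) and with the level trend subtracted (0.25), which left 2 members past it. With the level trend subtracted the *TAF15* ratio turned to 0.0497, and the median over all 9 members to the same 0.0497, while *EWSR1* (-0.07), *FLI1* (-0.10), *ETV5* (0.37) and *ETV6* (0.18) kept their sign. The median over the 7 tested members, added after seeing the data, ranged from 0.18 to 0.30. At the lower threshold, a log2 ratio of 0.32, 3 members were past it, and at 2-fold none. Over all genes, 912 passed 1.5-fold, with 325 (255 higher, 70 lower) at a filter of 5 per-million units and 554 (71 lower) among protein-coding genes alone. The lower threshold gave 2492 (1821 higher, 671 lower) and 2-fold gave 313 (255 higher, 58 lower). The level trend gave 436 higher and 356 lower, and a pseudocount of 0.1 gave 311 lower. Fewer genes tested, or another threshold, lowers or raises these counts by construction; for the level trend and the pseudocount the cause was not tested. No paired analysis was possible because each group has 1 library. Leaving out a library was not possible for the same reason. Unknown depth limits what can be said of low genes and of entries at 0.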
